A study of Mus musculus with 6 samples.

Results

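The 42 genes described here encode dioxygenases that depend on 2-oxoglutarate, other than the TET enzymes. They were chosen by name, as enzymes that 2-hydroxyglutarate may inhibit. CpG positions that were read in all 6 libraries (shared positions) were collected for each gene from its RefSeq extent on mm10 with 1 kb added on each side. The 42 genes are part of 21883 protein-coding genes in the RefSeq table, and they hold 2206 of the 552338 shared positions. By role they comprise 14 histone lysine demethylases, 5 JmjC-domain hydroxylases, 3 prolyl hydroxylases of hypoxia-inducible factor (HIF), 9 genes of the ALKBH and FTO group, most of whose enzymes act on nucleic acids, 6 collagen prolyl and lysyl hydroxylases and 5 other hydroxylases.

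The DNA came from sorted bone marrow cells of male C57BL/6 mice aged 7 to 10 months and was read by eRRBS (enhanced reduced representation bisulfite sequencing). The method samples CpG-rich fragments and reports the share of reads that kept a C at each cytosine. The knock-in mice (KI, genotype IDH1+/lsl VavCre+) and their control littermates (Control, IDH1+/+ VavCre+) both carried VavCre, a Cre recombinase driven by a promoter active throughout the blood lineage, so the groups differ in the Idh1 allele that Cre switches on and not in Cre itself. Each genotype gave 1 library each of long-term stem cells (LT-HSC, Lin- Sca+ Kit+ CD150+ CD48-), short-term stem cells (ST-HSC, CD150+ CD48+ in the same Lin- Sca+ Kit+ gate) and multipotent progenitors (MPP, CD150- in that gate), with 6 mice per group. The 6 libraries held 38284759 to 53884467 reads, summed over CpG positions, at medians of 27 to 45 reads per position.

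Dioxygenases of this family couple the oxidation of a substrate to the conversion of 2-oxoglutarate and oxygen into succinate and CO2, with iron at the active site. IDH1 normally makes 2-oxoglutarate from isocitrate, and the cancer-associated mutant enzyme instead turns 2-oxoglutarate into 2-hydroxyglutarate, which competes for the cofactor's place in several of these enzymes. The family is known for removing methyl groups from histones, for marking HIF for destruction when oxygen is present, and for removing methyl groups from DNA and RNA bases. The measurements below concern DNA methylation of the genes themselves. RNA, protein and enzyme activity were not analysed here.

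No group had a replicate library, so every comparison of reads below, made with a two-sided Fisher exact test, sets 1 library against another and covers counting error only. Reads that are copies of 1 molecule would make it too narrow. Region tests summed reads over positions, so a read that covered several CpGs was counted at each of them. This too can make the p-values of regions too small. The read counts given for regions are such sums. Sequencing lane and genotype cannot be told apart, because no lane held both, and a change in the mix of cells within a sorting gate cannot be told apart from a change within cells. The sorting markers are surface proteins. The ends of Kit, which is in the gate, and of the surface genes Cd34 and Flt3, which are not part of it, were measured. None was called in any cell type, which does not check cell identity. One library stood apart. At 1.45% of the dioxygenase positions (32 of 2206) the Control MPP library alone lay at least 25 percentage points above all 5 others, and over all shared positions the share was 1.24%. The other 5 libraries stood alone in this way at 1 to 9 dioxygenase positions each. Control MPP also lay alone at least 25 points below all 5 others at 6 dioxygenase positions (0.272%), and at 0.761% of all shared positions. Differences in MPP that rest on such positions are named as they come.

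**Figure D1:**
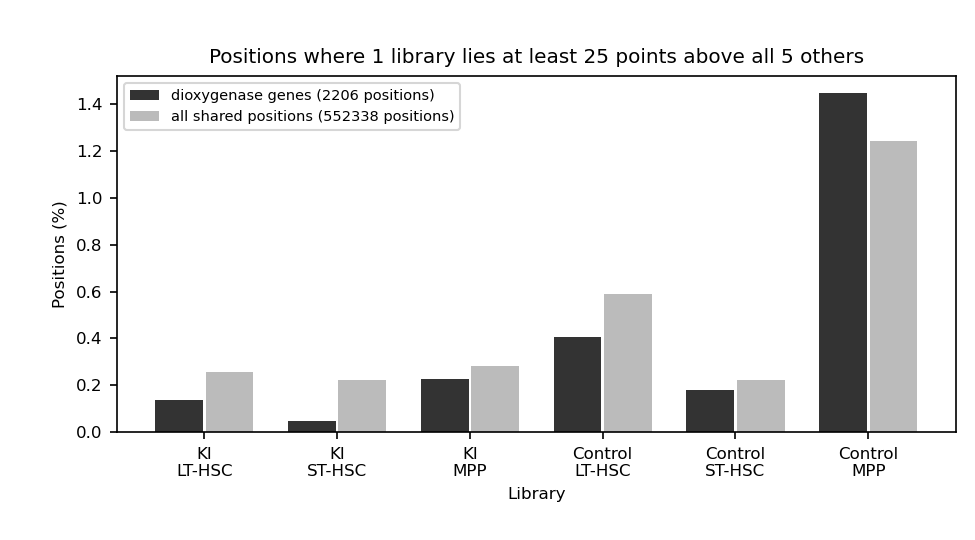
Share of CpG positions (y axis, percent) at which 1 library lies at least 25 percentage points above all 5 others, for each library (x axis), in the dioxygenase genes (dark bars) and over all shared positions (light bars). The Control MPP bars, at 1.45% and 1.24%, are the tallest of the 6 pairs.

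Promoter sequence was available for 34 of the 42 genes, as 44 windows of 300 bases running from 250 before to 50 after an annotated start (RefSeq, GRCm38.p6, the same build as mm10). Of these, 23 windows in 21 genes held measured CpG positions, and 19 of the 23 were under 10% methylated in every library. The windows were richer in CpG than promoters at large, with a median observed to expected CpG ratio of 0.824, against 0.567 over 21262 promoter windows of protein-coding genes. The core of the hypoxia response element, to which HIF binds, is written ACGTG or GCGTG, and since both contain a CpG their methylation can be read directly. Searched on both strands and not counting overlaps apart, ACGTG occurred in 14 of the 44 windows (31.8%, against 20.9% of all windows) and GCGTG in 24 (54.5%, against 38.5%). A match describes letters and not a bound site.

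These 4 windows are shown because they hold such a core among measured CpGs and cover both patterns found, cores at 0% in nearly every library and cores that differ in Control MPP. Capitals mark the measured CpGs. Egln2 encodes a HIF prolyl hydroxylase and P4ha1 the catalytic subunit of collagen prolyl hydroxylase. Jmjd1c encodes a JmjC-domain protein of the KDM3 group, and Ogfod1 a prolyl hydroxylase that acts on a protein of the small ribosomal subunit. The windows lie at chr7:27166753-27167052 (minus strand), chr10:59323046-59323345 (plus), chr10:67126838-67127137 (plus) and chr8:94036948-94037247 (plus), each ending 50 bases inside the transcript.
Egln2: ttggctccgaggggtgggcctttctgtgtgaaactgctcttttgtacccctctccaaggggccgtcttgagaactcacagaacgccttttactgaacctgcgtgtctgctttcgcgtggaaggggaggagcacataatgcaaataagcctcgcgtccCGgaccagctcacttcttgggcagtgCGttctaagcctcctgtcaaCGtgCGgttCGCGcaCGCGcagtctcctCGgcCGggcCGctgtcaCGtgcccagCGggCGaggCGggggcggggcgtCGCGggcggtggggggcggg
P4ha1: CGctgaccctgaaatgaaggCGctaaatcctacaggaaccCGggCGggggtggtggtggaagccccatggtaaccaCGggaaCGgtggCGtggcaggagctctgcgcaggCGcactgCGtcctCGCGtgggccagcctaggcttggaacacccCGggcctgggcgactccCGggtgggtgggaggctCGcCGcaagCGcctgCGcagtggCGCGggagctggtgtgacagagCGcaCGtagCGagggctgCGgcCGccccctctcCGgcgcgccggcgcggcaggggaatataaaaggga
Jmjd1c: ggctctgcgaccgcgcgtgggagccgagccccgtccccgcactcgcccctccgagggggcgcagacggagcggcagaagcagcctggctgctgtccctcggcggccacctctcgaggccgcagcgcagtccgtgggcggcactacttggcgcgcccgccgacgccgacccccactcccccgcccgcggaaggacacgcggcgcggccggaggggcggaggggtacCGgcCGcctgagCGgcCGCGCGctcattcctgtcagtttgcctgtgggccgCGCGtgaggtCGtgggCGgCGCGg
Ogfod1: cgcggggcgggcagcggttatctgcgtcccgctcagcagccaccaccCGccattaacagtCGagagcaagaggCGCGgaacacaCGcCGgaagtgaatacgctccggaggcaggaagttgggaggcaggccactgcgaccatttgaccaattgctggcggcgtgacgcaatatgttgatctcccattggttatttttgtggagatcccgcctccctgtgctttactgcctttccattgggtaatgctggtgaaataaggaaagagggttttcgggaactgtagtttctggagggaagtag

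Across the measured windows, 23 CpG positions in 12 of the genes lay inside an ACGTG or GCGTG, each with 10 to 184 reads per library. At 18 of them no methylated read was found in any library, and at 3 more only 1 library differed from 0. In Egln2, 3 of the 4 distinct core positions were at 0% in all libraries and the fourth stood at 12.3% in Control LT-HSC alone. The 3 core positions of P4ha1 were all at 0%, including the ACGTG read on 64, 50 and 64 reads in KI LT-HSC, ST-HSC and MPP and on 62, 51 and 37 reads in the Control libraries of those cells. Only 2 core positions exceeded 20% in any library, and both did so in Control MPP. The GCGTG of Ogfod1, on the minus strand, was at 0, 2.33 and 0% in KI LT-HSC, ST-HSC and MPP, against 0, 1.85 and 50% (32 reads) in Control. That of Jmjd1c was at 2.65, 0 and 0% in KI, against 0, 0 and 60% (10 reads) in Control. Both were therefore close to unmethylated in 5 libraries and partly methylated in the sixth, the one that stood apart across the genome.

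The 42 genes are accounted for as follows. Kdm3a, Alkbh7, Alkbh8 and P4ha3 had no shared position, which leaves 38. Gene ends, the positions within 1000 bases of either end of the extent, were tested with 5 or more shared positions, and 34 genes reached this. Phyh, the peroxisomal hydroxylase of branched fatty acids, had 1 end position, at 10.5% in KI LT-HSC, 7.14% in KI ST-HSC and 5% in KI MPP, against 0% in all 3 Control libraries. Gene bodies, the rest of the extent, were tested in 17 genes, and 14 genes were tested in both. Of all protein-coding genes, 10963 had tested ends and 6366 tested bodies. Levels are unweighted means of the positions.

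Most ends of these genes were nearly free of methylation in every library. The mean level over the 6 libraries was under 10% in 27 of 34 ends (79.4%, against 85.9% of all genes), with a median of 3.42%, which is also the median of all gene ends. Where the promoter table gave the direction of transcription, the 26 ends on the start side had median levels of 2.67, 3.21 and 3.39% in KI LT-HSC, ST-HSC and MPP, against 3.06, 2.89 and 2.54% in Control. On the far side 3 ends had at least 5 positions and differed widely. Phf2 was at 88.7 to 95.4% and Alkbh6 at 93.2 to 100%, with 5 positions each, while Ogfod2, with 26, was at 1.6 to 3.5%. Only the ends of Alkbh6 and Ogfod3 were near full methylation. Bodies were more varied, with a median of 29.7%, against 52.1% over all gene bodies. Of the 17, 6 were under 10% and 6 over 90%.

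**Figure D2:**
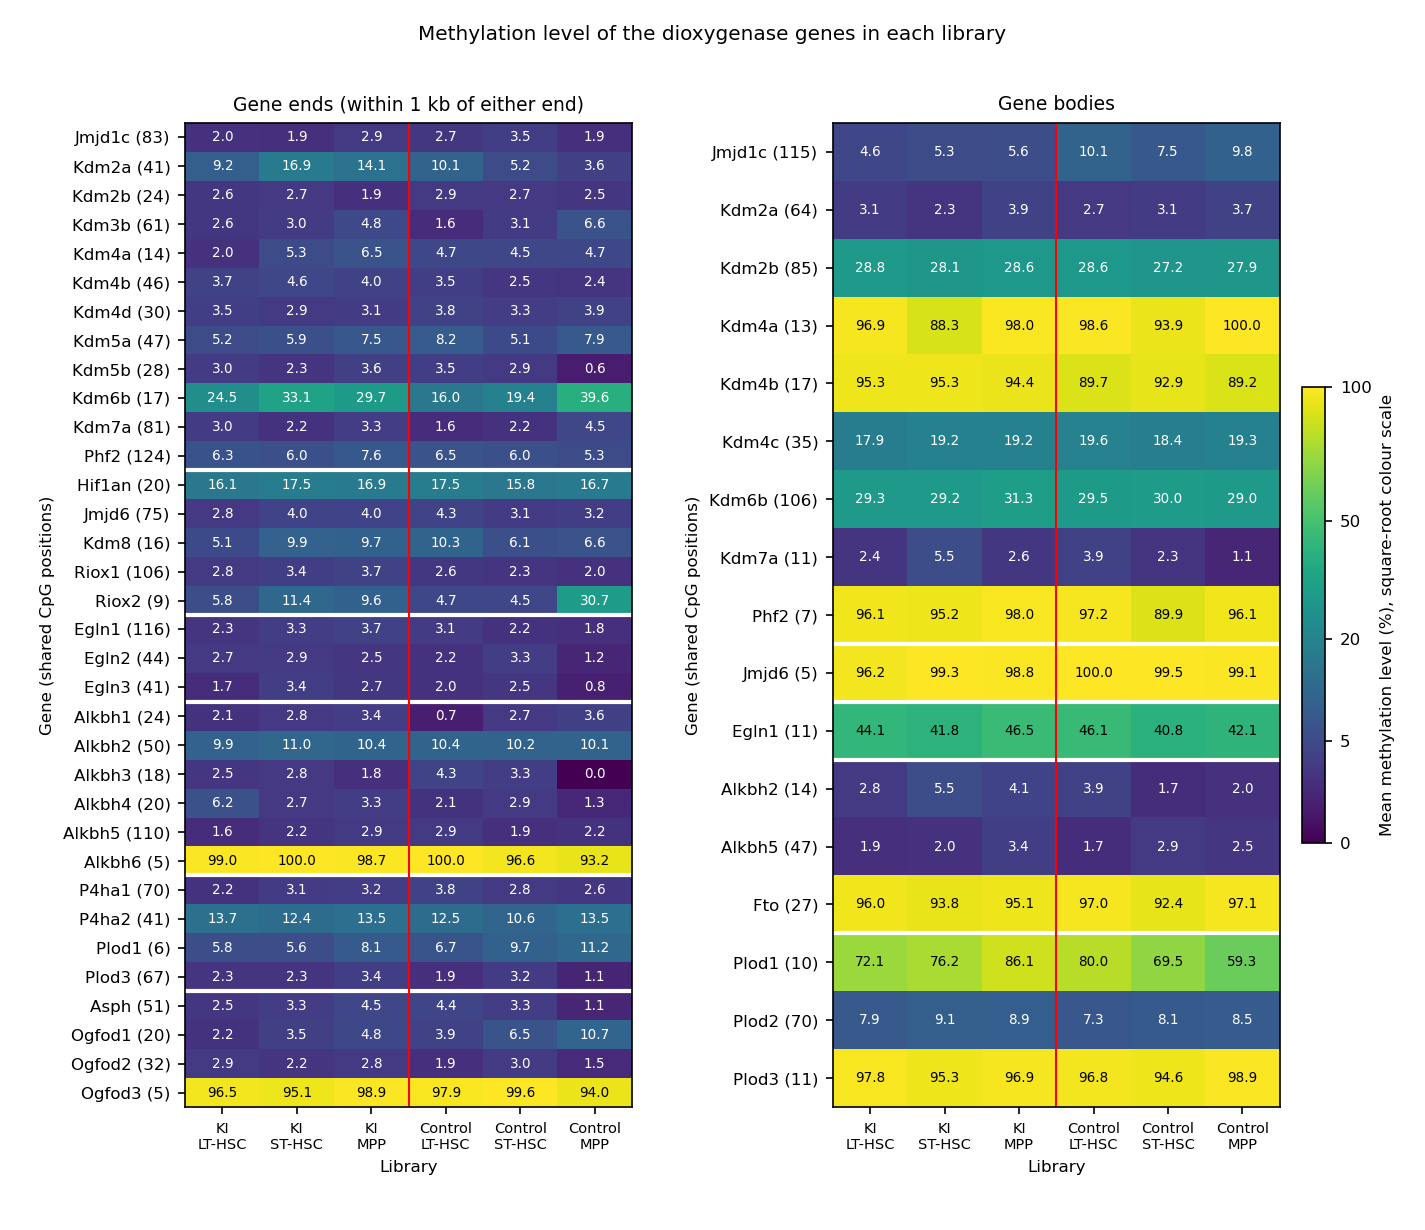
Mean methylation level in percent (colour on a square-root scale, and printed in each cell) of the tested gene ends (left) and gene bodies (right), with genes as rows grouped by role, their number of shared positions in brackets, and the 3 KI and 3 Control libraries as columns. Most ends lie under 10% in all 6 libraries, and the ends of Kdm2a, Kdm6b and Riox2 and the body of Plod1 show the widest spread between libraries.

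The first question was whether these genes differ between KI and Control within a cell type. A region was called at an adjusted p under 0.01, over all genes tested, together with a difference of at least 10 percentage points. In LT-HSC no end of the 34 was called, where 1.41% of all gene ends were. In ST-HSC 1 end was called, Kdm2a, higher in KI (2 of 34 ends were 10 points apart), and among all genes 1.73% of ends were called and 1.53% called higher. In MPP 2 ends were called, Kdm2a higher and Riox2 lower, against 2.42% of all ends, of which 1.87% higher and 0.547% lower. With 34 ends, the counts of 0, 1 and 2 are near what those background shares give.

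Small differences, most of them under the threshold, were compared with those of all genes. The median KI minus Control differences of the 34 ends in LT-HSC, ST-HSC and MPP were -0.44, 0.17 and 1.15 points, and over all gene ends -0.16, 0.59 and 1.23, so the members' median was the lower one in each cell type. KI was higher in 12, 22 and 24 of the 34 ends in LT-HSC, ST-HSC and MPP, which is 35.3, 64.7 and 70.6%, and over all ends the shares were 45.6, 66.5 and 73.5%. Only 3 ends were higher in KI in all 3 cell types (Kdm4b, P4ha2 and Riox1), where 22.9% of all ends were, and 3 were lower in all 3 (Kdm4d, Ogfod1 and Plod1), against 5.05%. With the reads of a region pooled, which gives well covered positions more weight, 4 ends were higher in all 3 (Jmjd6, Kdm4b, Ogfod2 and Riox1, against 21.7% of all ends) and 3 lower (Kdm2b, Ogfod1 and Plod1, against 5.32%). Kdm4b, Riox1, Ogfod1 and Plod1 are thus in both sets. The limma fit, which takes the spread between cell types and libraries as error, passed none of the 34 ends at an adjusted p under 0.05, and 0% of all ends. None of the 34 passed when any 1 cell type was left out. At an unadjusted p under 0.05 it held 2 of 34 ends, Kdm2a and Ogfod1, and 5.82% of all ends.

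**Figure D3:**
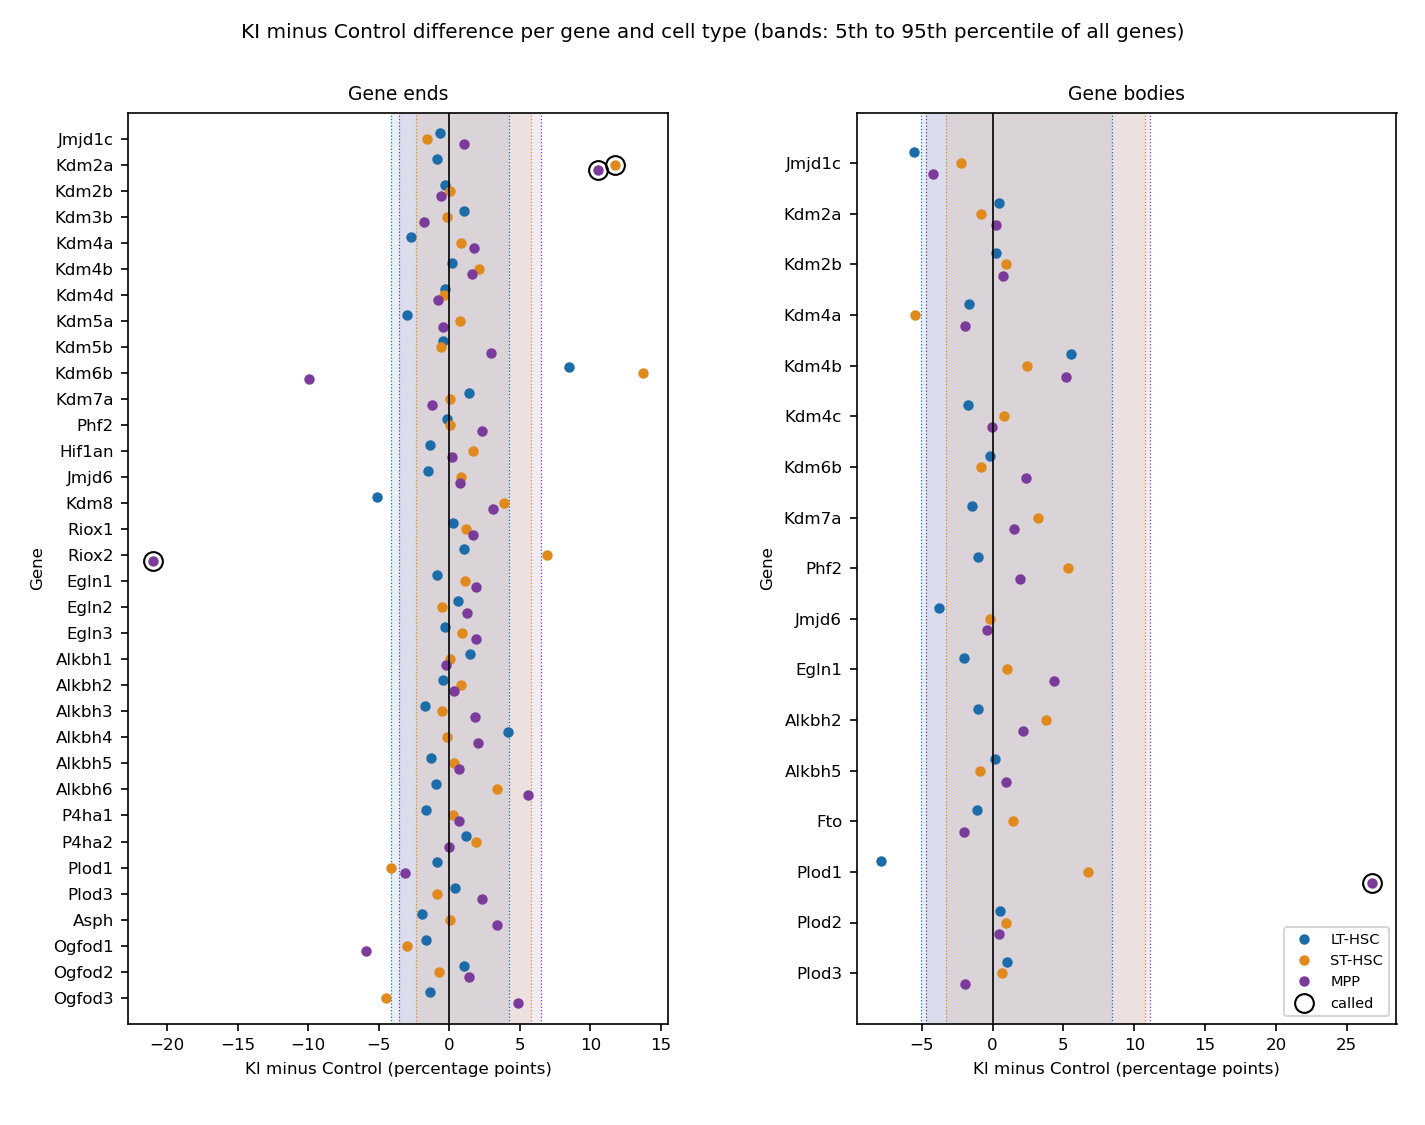
KI minus Control difference in percentage points (x axis) for each tested gene end (left) and gene body (right), with 1 point per cell type, rings on called differences, and shaded bands for the 5th to 95th percentile of all genes in each cell type. Of the ends only Kdm2a (11.7 points in ST-HSC and 10.5 in MPP) and Riox2 (-21.0 in MPP) are ringed, and of the bodies only Plod1 (26.8 in MPP).

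Among the histone demethylases, Kdm2a carried the clearest difference. It encodes an enzyme that removes methyl groups from lysine 36 of histone H3 and binds unmethylated CpG islands through its CXXC zinc finger. Its extent is chr19:4316144-4398721, and its 41 end positions all lie at the upper end and also within 1000 bases of an end of 9430078G10Rik, so the 2 genes cannot be told apart here. The level was 9.23% in KI LT-HSC, 16.9% in KI ST-HSC and 14.1% in KI MPP, against 10.1, 5.22 and 3.64% in the Control libraries of those cells, from 2466 to 5266 reads each. In LT-HSC KI and Control lay within 1 point of each other. The KI ST-HSC and KI MPP libraries were above every Control library. The difference was -0.88 points in LT-HSC (Fisher adjusted p = 0.919), 11.7 points in ST-HSC (adjusted p = 1.30e-57) and 10.5 points in MPP (adjusted p = 2.79e-44). It averaged 7.11 points with an SD of 6.95 between the 3 cell types, which do not stand in for replicates. In the limma fit to all 6 libraries the log2 odds of a methylated read were 1.36 higher in KI (SE 0.48, limma adjusted p = 0.843).

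Most of the difference at Kdm2a lay in a short stretch, whose bounds were chosen after the values were seen. The 20 positions at chr19:4398378-4398494, between 33 and 183 reads each per library, had a mean level of 16.4% in KI LT-HSC, 29.7% in KI ST-HSC and 23.6% in KI MPP, against 16.6, 8.46 and 4.65% in Control. In KI the later cell types were therefore above LT-HSC, and in Control they were below it. KI was higher at 19 of the 20 positions in ST-HSC and at 18 in MPP, but at 9 in LT-HSC. These counts describe the chosen stretch and do not test it. A stretch of 14 positions at chr19:4397947-4398071 in the same end, also chosen after its values were seen, showed 1.09, 5.53 and 4.03% in KI and 5.92, 2.97 and 4.01% in Control. The Kdm2a body, 64 positions at 2.3 to 3.9%, was not called in any cell type.

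At single CpGs, called at an adjusted p under 0.01 and at least 25 points, Kdm2a had 7 positions higher in KI in ST-HSC and 7 in MPP, with 1 lower in MPP. Across all 42 genes only 4 positions were called in 1 direction in at least 2 cell types, all of them higher in KI, where 0.398% of all shared positions were, and 3 of the 4 lie in this stretch. At the position 4398434 of chromosome 19 the level was 13.1% in KI LT-HSC (137 reads), 43.8% in KI ST-HSC (89) and 32.9% in KI MPP (76), against 19.3% (119), 6.61% (121) and 0% (66) in Control. Its neighbour at 4398426 stood at 15.8, 43.7 and 36.0% in KI, against 22.4, 11.1 and 0% in Control. Both show the order of the whole stretch. No promoter window was available for Kdm2a.

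**Figure D4:**
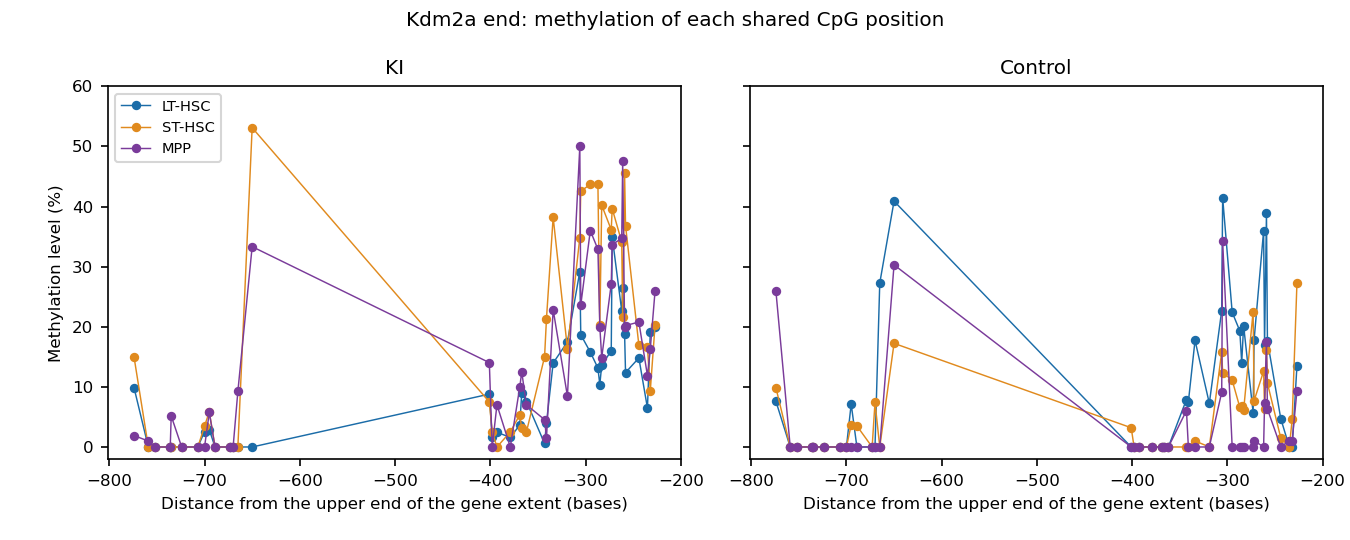
Methylation level in percent (y axis) of each of the 41 shared CpG positions at the end of Kdm2a, by distance in bases from the upper end of the gene extent (x axis, negative inside the extent), in KI (left) and Control (right), with 1 line per cell type. In the stretch nearest the end (mean 29.7% in KI ST-HSC and 23.6% in KI MPP, against 8.46 and 4.65% in Control) the KI lines of these cells lie above the Control ones. The bounds of this stretch were chosen after the values were seen.

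Kdm6b, which encodes a demethylase of lysine 27 of histone H3, had the widest range of levels among the demethylase ends but no one direction. Its extent is chr11:69398508-69420367. The 17 end positions averaged 24.5, 33.1 and 29.7% in KI LT-HSC, ST-HSC and MPP, against 16.0, 19.4 and 39.6% in Control, from 490 to 1047 reads each. KI was above Control in the stem cells and below it in MPP, by 8.50, 13.8 and -9.91 points, none of them called (adjusted p = 0.636, 0.0106 and 1.03e-09). With reads pooled, the differences were -1.24, 7.91 and -15.4 points, so the LT-HSC direction depends on the weighting. With only positions of at least 20 reads in every library, the differences were 8.49, 6.55 and -1.55 points, none called. The methylation sits at the lower end, outside the extent, where 11 of the positions also lie at an end of Tmem88. There, 7 positions at chr11:69398210-69398290 stood at 43.3, 63.0 and 50.8% in KI, against 31.8, 24.5 and 71.3% in Control. Each had between 17 and 122 reads per library. The window of 1000 bases that holds them, from 69398001, was called in all 3 cell types, higher in KI in LT-HSC and ST-HSC and lower in MPP.

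The other histone demethylase ends were not called in any cell type. Kdm4b, whose enzyme acts on lysine 9 of histone H3, differed by 0.21, 2.13 and 1.58 points in LT-HSC, ST-HSC and MPP, at levels of 2.4 to 4.6%. Kdm5a, a demethylase of lysine 4 of histone H3, differed by -2.96, 0.75 and -0.42 points, and 45 of its 47 end positions are shared with an end of Ccdc77. Kdm4d, a further lysine 9 demethylase, differed by less than 1 point in each cell type, with all 30 end positions at an end of Cwc15 too. The 12 demethylase ends together had median differences of -0.28, 0.03 and 0.30 points.

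The JmjC hydroxylases act mainly on proteins other than histones, and all 5 ends were tested. Riox2 encodes a hydroxylase of a ribosomal protein. Its extent is chr16:59471753-59492532, and its 9 end positions averaged 5.80% in KI LT-HSC, 11.4% in KI ST-HSC and 9.65% in KI MPP, against 4.75, 4.53 and 30.7% in Control. The Control MPP library was above the other 5, and the call in MPP, a difference of -21.0 points (Fisher adjusted p = 7.93e-06), rests on it. Most of that came from 2 positions, 59471989 and 59471992, at means of 19.3, 29.5 and 22.2% in KI, against 16.5, 16.7 and 100% in Control, where Control MPP had 11 reads at each. With positions of at least 20 reads in every library, the MPP difference was -7.43 points (adjusted p = 0.02004) and was no longer called. In the limma fit the sign was the other way, a log2 difference of 0.46 (SE 0.66, adjusted p = 0.921). Hif1an, the asparaginyl hydroxylase that blocks HIF from its coactivator, stood at 16.1, 17.5 and 16.9% in KI, against 17.5, 15.8 and 16.7% in Control. That middling level averaged 17 positions at the start, at 1.3 to 4.0%, with 3 at the far end, at 94.4 to 100%.

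The HIF prolyl hydroxylases, which tag HIF for the von Hippel-Lindau ubiquitin ligase, were lowly methylated in all libraries. The 3 ends of Egln1, Egln2 and Egln3, with 201 positions in all, ranged from 0.8 to 3.7%. Their KI minus Control differences lay between -0.84 and 0.60 points in LT-HSC, between -0.49 and 1.15 in ST-HSC and between 1.29 and 1.90 in MPP, and none was called. KI was higher at all 3 in MPP, the direction taken by 73.5% of all gene ends there. The Egln1 body, 11 positions at 40.8 to 46.5%, differed by -2.04, 1.02 and 4.31 points, again not called.

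Of the ALKBH and FTO group, most of whose enzymes take alkyl groups off DNA or RNA, 6 ends were tested and none was called. Alkbh4, a demethylase of actin, was at 6.2, 2.7 and 3.3% in KI LT-HSC, ST-HSC and MPP, against 2.1, 2.9 and 1.3% in Control. Its difference of 4.13 points in LT-HSC had an adjusted p of 9.20e-05 (Fisher) but missed the 10-point threshold, and all 20 positions are shared with Lrwd1. Most of that difference lay at 1 position, 136136014 of chromosome 5, at 60% in KI LT-HSC (10 reads) against 0% in Control LT-HSC (39 reads). Alkbh6, with 5 positions shared with Syne4, stood at 99.0, 100 and 98.7% in KI, against 100, 96.6 and 93.2% in Control. The RNA demethylase genes Alkbh5 and Fto were not called either, with the Alkbh5 end at 1.6 to 2.9% and the Fto body at 92.4 to 97.1%.

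The collagen hydroxylases modify proline and lysine in collagen chains in the endoplasmic reticulum, and their 4 tested ends had median differences of -0.24, -0.30 and 0.34 points with no call. Plod1, a lysyl hydroxylase with the extent chr4:147909753-147936776, differed at its end by -0.88, -4.11 and -3.13 points over 6 positions. P4ha2, a second catalytic subunit of the prolyl hydroxylase, differed by 1.15, 1.86 and 0.011 points in LT-HSC, ST-HSC and MPP at levels of 10.6 to 13.7%, and its direction depended on the weighting. Its pooled shares of methylated reads were 8.64, 13.1 and 15.5% in KI, against 18.6, 10.9 and 17.9% in Control, lower in KI in LT-HSC (Fisher adjusted p = 6.56e-17) and MPP (adjusted p = 0.0764). The P4ha2 positions join 37 at the start, at 1.8 to 4.7%, with 4 at the far end, at 91.7 to 100%. KI minus Control was 1.00, 2.09 and -0.47 points at the start and 2.53, -0.23 and 4.41 at the far end. Pooled shares therefore also depend on how the reads fall between the start and the far end. The limma log2 difference, also from pooled reads, was -0.41 (SE 0.39, limma adjusted p = 0.895).

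Among the other hydroxylases, Ogfod1 was lower in KI in each cell type. Its extent is chr8:94037122-94067922, and its 20 end positions, all shared with an end of Nudt21, stood at 2.17% in KI LT-HSC, 3.53% in KI ST-HSC and 4.77% in KI MPP, against 3.85, 6.52 and 10.7% in Control. Within each cell type KI was the lower one, while the 2 genotypes overlapped across cell types. The mean difference was -3.53 ± 2.17 points (SD over 3 cell types), and none of the 3 was called. In the limma fit the log2 difference was -1.08 (SE 0.35, limma adjusted p = 0.843). Of its positions, 3 were among those where Control MPP alone stood above all others. Asph, an aspartyl hydroxylase, and Ogfod2 were not called.

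Gene bodies gave 1 call. None of the 17 was called in LT-HSC, where 3.96% of all bodies were, none in ST-HSC (4.85%) and 1 in MPP, Plod1, higher in KI (5.67% called, 4.79% higher). Median differences were -1.06, 0.92 and 0.70 points, and over all bodies 0.29, 1.13 and 1.22. In LT-HSC 11 of the 17 bodies were lower in KI, and 54.8% of all bodies were higher. Bodies higher in KI in all 3 cell types numbered 3 (Kdm2b, Kdm4b and Plod2), against 28.6% of all, and lower in all 3 were 3 (Jmjd1c, Jmjd6 and Kdm4a), against 5.62%. With reads pooled, only Kdm4b remained among the first (19.5% of all bodies) and Jmjd1c among the second (8.69%). The limma fit passed none of the 17 (0.0157% of all bodies) and at an unadjusted p under 0.05 also none (7.51% of all).

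The Plod1 body moved in opposite directions with differentiation in the 2 genotypes. Its 10 positions averaged 72.1% in KI LT-HSC, 76.2% in KI ST-HSC and 86.1% in KI MPP, against 79.95, 69.5 and 59.3% in Control, from 354 to 669 reads each. KI was the lower library in LT-HSC and the higher one in ST-HSC and MPP, by -7.85, 6.75 and 26.8 points (Fisher adjusted p = 0.0191, 0.00256 and 2.26e-25). The largest part lay at 2 positions, chr4:147918733-147918758, with means of 53.0, 65.8 and 78.2% in KI, against 65.1, 43.8 and 3.18% in Control. At both positions Control MPP alone lay at least 25 points below every other library. The call in MPP, and the MPP minus LT-HSC difference in Control, thus rest in part on positions where that library stood apart. A pair at chr4:147928410-147928427 stood at 56.2, 86.8 and 99.5% in KI, against 71.9, 71.6 and 68.5% in Control. With positions of at least 20 reads in every library too few remained for the body to be tested.

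Jmjd1c, with the extent chr10:67096351-67256326, had the lowest mean difference of the bodies. Its 115 body positions include the measured promoter shown above, because the extent begins further upstream, and they averaged 4.57% in KI LT-HSC, 5.28% in KI ST-HSC and 5.58% in KI MPP, against 10.1, 7.51 and 9.76% in Control. KI was lower in all 3 cell types, as in 5.62% of all bodies, and the body was named for its mean difference. The difference was -3.98 ± 1.66 points (SD over 3 cell types), none of the 3 reached 10 points, and the limma adjusted p was 0.645. In MPP most of it came from the 6 capitals nearest the end of the printed window, read on the reverse strand at positions 67127115 to 67127136. They averaged 0.442, 1.71 and 1.74% in KI, against 0, 0 and 59.8% in Control. The Control MPP reads summed to 67 over these 6 positions. The 5 of them called lower in MPP had only 10 to 12 reads each there, and 1 read can cover several of them. Its end positions, all 83 at an end of Reep3 too, were at 1.9 to 3.5%.

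The Kdm4b body had the largest positive mean difference of the 17 bodies after Plod1. It was at 95.3, 95.3 and 94.4% in KI LT-HSC, ST-HSC and MPP, against 89.7, 92.9 and 89.2% in Control, a mean difference of 4.38 ± 1.73 points (limma adjusted p = 0.689). Of all bodies, 28.6% were higher in KI in all 3 cell types. At 1 of its positions, 56327245 of chromosome 17, the level was 77.8, 69.2 and 74.3% in KI, against 28.6, 50 and 18.8% in Control, called in LT-HSC and MPP from 16 to 39 reads. The Kdm4a body was lower in KI by 1.66, 5.50 and 1.96 points at levels of 88.3 to 100%, and that of Jmjd6, a lysyl hydroxylase of splicing proteins, by 3.80, 0.16 and 0.40 points over 5 positions. The bodies of Phf2, Alkbh2, Fto and Kdm4c had mean differences between -0.56 and 2.06 points and changed direction between cell types. For Kdm4c the LT-HSC result depended on the weighting. Its pooled shares there were 6.20% in KI and 18.3% in Control, a difference of -12.1 points (Fisher adjusted p = 3.85e-53). The pooled differences of Kdm4c in ST-HSC and MPP were -1.08 and 3.03 points.

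**Figure D5:**
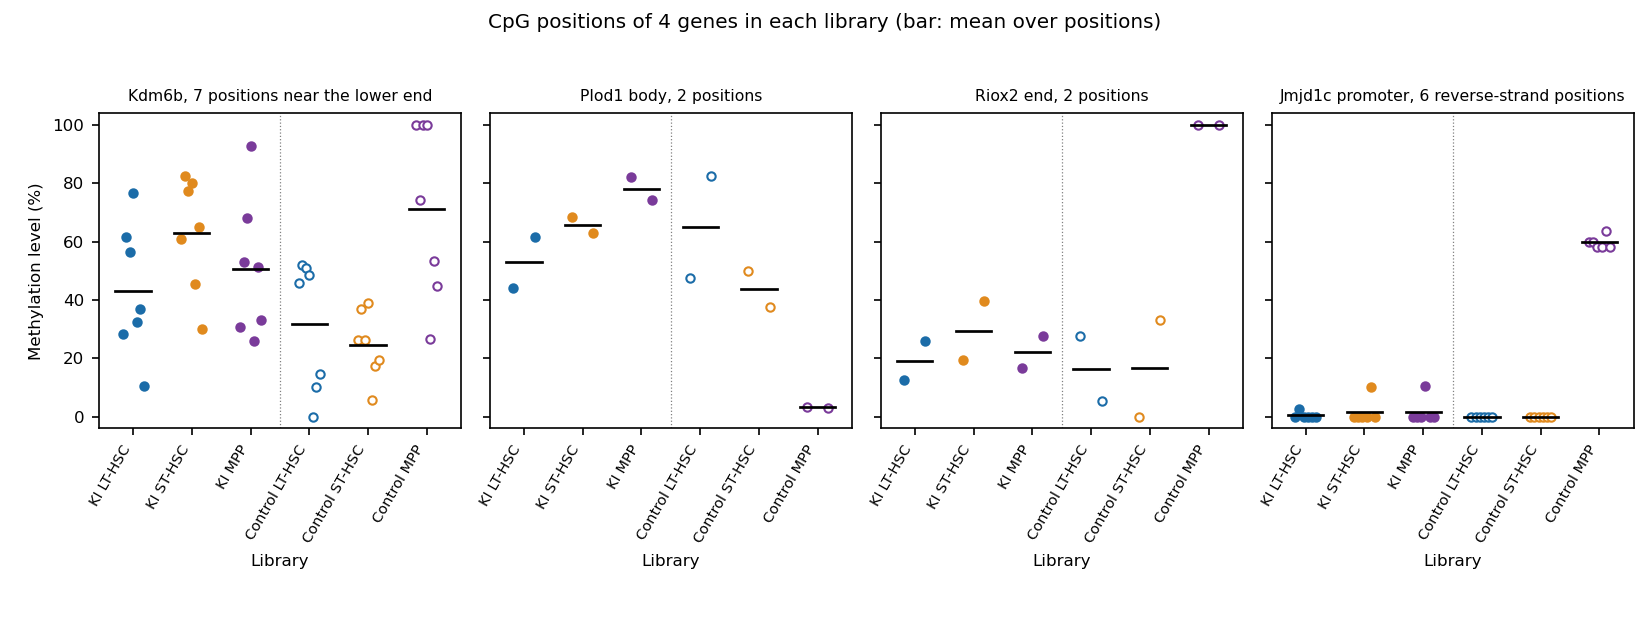
Methylation level in percent (y axis) of single CpG positions in 4 of the genes, by library (x axis, KI libraries with filled points left of the dotted line and Control libraries with open points right of it), with a bar at the mean. The Control MPP library lies at 100% in Riox2, at a mean of 59.8% in Jmjd1c and at 3.18% in Plod1, and in Kdm6b the KI libraries are above Control in LT-HSC and ST-HSC and below it in MPP.

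A second comparison followed the step from stem cell to progenitor within a genotype. MPP minus LT-HSC gave no called end in KI (1.4% of all ends) and 2 in Control, Kdm6b by 23.6 points and Riox2 by 25.9, both higher in MPP (2.45% of all ends, 1.61% higher). In KI the same 2 ends differed by 5.14 and 3.85 points. The median difference of the 34 ends was 1.10 points in KI and -0.76 in Control, and over all ends 1.17 and -0.24. Among bodies Plod1 was called in both genotypes, higher in MPP in KI by 14.01 points (3.97% of all bodies called) and lower in Control by 20.6 points, from 59.3% in MPP against 79.95% in LT-HSC (6.63% called, 2.84% lower). The Kdm2a end was 4.91 points higher in MPP in KI and 6.48 points lower in MPP in Control, under the threshold in both. Since 1 library stands for each group, the difference between the genotypes in this step was not tested.

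At single positions the members were called less often than, or about as often as, the genome at large. In LT-HSC 10 of 2206 were higher in KI and 15 lower, or 1.13%, against 2.62% of all shared positions (1.28% higher and 1.34% lower). In ST-HSC 10 were higher and 1 lower (0.499%, against 0.672% of all, 0.557% higher and 0.115% lower). In MPP 30 were higher and 31 lower (2.77%, against 3.74% of all, 2.26% higher and 1.49% lower). In all, 92 positions in 29 genes were called in at least 1 cell type, a count for which no share over all shared positions was recorded. Of the 30 higher in MPP, 5 were positions where Control MPP alone stood at least 25 points below every other library. Of the 31 lower in MPP, 25 were positions where Control MPP alone stood at least 25 points above every other library. Of all 32 positions of that kind, 7 lay in Jmjd1c, 4 in Kdm3b, 3 each in Kdm7a and Ogfod1, and 2 in Riox2.

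Partly methylated positions were few in these genes. Positions under 20% made up 87.8% of the members' positions, against 75.4% of all, and positions at 20 to 80% made up 3.63% (80 positions), against 6.96%. At these 80 the LT-HSC, ST-HSC and MPP differences (KI minus Control) averaged -2.55, 8.24 and -0.36 points, and at all such positions 2.11, 7.97 and 4.09. None of the 77 windows of 1 kb was 10 or more points higher in KI, or 10 or more lower, in every cell type, where 0.896% of all windows were higher in this way and 0.0517% lower. By cell type, 2 windows were called in LT-HSC (4.45% of all windows), in Kdm2b and Kdm6b, 2 in ST-HSC (4.52%), in Kdm6b and Kdm2a, and 3 in MPP (6.04%), in Kdm2a, Kdm6b and Riox2. The limma fit passed none of the 77 windows (0.00796% of all windows), and at an unadjusted p under 0.05 it held 4 (6.99% of all), in Ogfod1, Jmjd1c, Kdm6b and Kdm2a, a share no higher than that of all windows.

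Related genes were measured in the same way. No end or body was called in any cell type among the other 2-oxoglutarate dioxygenases, TET genes included (13 ends and 7 bodies tested), the genes of 2-oxoglutarate metabolism (11 and 4) or the HIF pathway (6 and 4). Of the histone lysine methyltransferases, which place the marks that the demethylases remove, 20 ends and 11 bodies were tested and 2 ends were called. Nsd1, which methylates lysine 36 of histone H3, stood at 11.04% in KI LT-HSC, 18.1% in KI ST-HSC and 17.5% in KI MPP, against 3.79, 6.40 and 7.37% in Control, over 41 positions. KI was above Control in all 3 cell types, as in 22.9% of all ends, and the differences of 11.7 points in ST-HSC and 10.1 in MPP were called. Suv39h1, a lysine 9 methyltransferase, was called in MPP only, at 13.7% in KI against 0.490% in Control over 6 positions.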

How the data were processed

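The 6 libraries, 1 per genotype and cell type, were deposited as tables of CpG positions. Per the file headers, each position has its coverage, a count of reads, and the percent of reads with C (methylated) and with T. Each library was made from 10 ng of DNA and size-selected at 150 to 400 bp, with 5 libraries and 30% PhiX in a lane, per the labels' protocols. Per the submitters' processing notes, Bismark 0.10.0, SAMtools 1.0, methylKit 0.9.1 and mm10 were used. The sources used here do not say how duplicate reads were handled. Every deposited coverage value was at least 10 reads. Coverage times percent C gave whole reads at 100% of positions, within 0.01% of the coverage, and these reads entered the tests.

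Only positions in all 6 libraries were used, with both strands kept apart. Levels are unweighted means of positions. A two-sided Fisher exact test compared 2 libraries on summed reads per gene end, body or 1 kb window (at least 5 positions), or per position, with Benjamini-Hochberg adjustment over all genes, windows or positions. limma 3.58.1 (R 4.3.3) was fitted to the log2 odds of methylation, with a prior count of 1 added to methylated and to unmethylated reads, cell type as a block and a variance trend, at an adjusted p under 0.05. Its error is the spread between libraries and cell types, and the labels do not say if 1 pool of mice gave all 3 cell types. With 3 cell types, an exact sign-flip test cannot go below p = 0.25. On simulated gene ends (200 of 10963 raised by 20 points in KI), the Fisher calls in LT-HSC recovered 98.5% and limma 95%. Outside genes that share raised positions, false calls numbered 0 with Fisher and 7 with limma. The simulated reads had counting error alone for Fisher, and for limma a set spread between libraries that was not taken from these data. These shares check the code and do not measure the power of the tests in these libraries. numpy 2.4.6, pandas 2.3.3, scipy 1.17.1 and matplotlib 3.10.9 were used in Python 3.11.15.

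Gene extents and promoter windows came from RefSeq tables of GRCm38.p6. The members, the gene lists, the tests and their alternatives were chosen with earlier results of these data known. Named with values were members called in any cell type, the 5 with the largest positive and the 5 with the largest negative mean difference at ends and at bodies, members called between MPP and LT-HSC in both genotypes, and up to 4 called genes of each other list. Others, and the bounds of every stretch or pair of positions described within a gene, were chosen after their values were seen. Alternatives were a coverage minimum of 20, thinning to 10 reads, ends of 500 bases, the better covered end alone, at least 10 positions, pooled shares of reads, other thresholds, another prior count and windows shifted by 500 bases.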

Additional observations from a re-analysis of the deposited data

Results flagged for a closer look

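The Plod1 body was flagged because its step from LT-HSC to MPP went in opposite directions in the genotypes. MPP minus LT-HSC was 14.01 points in KI and -20.6 points in Control, and both differences were called. The difference between these steps was not tested, because each group is 1 library.

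The window of 1 kb at the lower end of Kdm6b, on chromosome 11 from 69398001, was flagged because KI minus Control changed direction between cell types. The 8 positions of the window averaged 43.7, 63.1 and 50.7% in KI LT-HSC, ST-HSC and MPP, against 32.9, 29.2 and 70.7% in Control. The LT-HSC, ST-HSC and MPP differences were 10.8, 33.9 and -20.0 points, each called against the reads of 1 other library. The difference between cell types was not tested. Of the window's positions, the 7 at chr11:69398210-69398290 had between 17 and 122 reads each per library. Over the whole Kdm6b end, positions of at least 20 reads gave 8.49, 6.55 and -1.55 points, none called. The Control MPP library, which stood apart at more positions than any other, is part of both patterns, and its part in them was not tested.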

How the results depend on the processing

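Kdm2a was called in ST-HSC and MPP under every alternative tried for gene ends. For Riox2 in MPP, thinning to 10 reads kept the difference (-21.1 points) but not the call (Fisher adjusted p = 0.0216). Positions of at least 20 reads gave -7.43 points and no call, and a minimum of 10 positions removed the end, which has 9. Each of these alternatives left 1 called end in MPP, where 0.812, 2.05 and 1.23% of all ends were called. The Plod1 body stayed called in MPP after thinning (30 points, adjusted p = 0.000146). At 20 reads it had too few positions to be tested, and 0 bodies were called in MPP (5.22% of all bodies). A threshold of 5 points gave 1, 2 and 4 called ends in LT-HSC, ST-HSC and MPP, where 4.93, 4.34 and 8.17% of all ends were called, and 1, 3 and 2 bodies, where 10.6, 9.94 and 14.6% of all bodies were. Ends of 500 bases, and the better covered end alone, each gave 1, 2 and 3 called ends in these cell types, Kdm6b being the added one, higher in KI in LT-HSC and ST-HSC and lower in MPP (-20.0 and -17.3 points). With positions of at least 20 reads, Kdm6b differed by 8.49, 6.55 and -1.55 points in LT-HSC, ST-HSC and MPP and was not called. With 500 bases 1.32, 1.5 and 2.24% of all ends were called, and with the better covered end 1.47, 1.81 and 2.37%. Pooled shares of reads also added Kdm6b in MPP (-15.4 points). They gave 2 called bodies in LT-HSC, Egln1 and Kdm4c, both lower in KI (13.3% of all bodies called). In ST-HSC they gave 2, Egln1 and Plod1, both higher in KI (8.8%). For MPP against LT-HSC, 0 bodies were called in KI and 0 in Control at 20 reads (3.8 and 5.98% of all bodies) and after thinning (1.02 and 1.87%). With pooled shares 3 were called in KI (15.1% of all bodies). With a threshold of 10 points, the LT-HSC, ST-HSC and MPP calls came to 70, 18 and 126 single positions. No share over all shared positions was recorded at that threshold, so these counts cannot be set against the genome. After thinning they came to 0, 0 and 0, so calls of single positions are limited by depth (median coverage 27 to 45 reads). The limma fit sets KI against Control within each cell type, and it passed 0 ends and 0 bodies with either prior, without this cell type block and without any 1 cell type. Of 54 mean differences of named regions under alternatives, 2 took the other sign, Kdm6b ends at -2.90 and Egln1 body at -0.93 with pooled shares. Neither region was called between KI and Control in the main setting, but with pooled shares both were called in at least 1 cell type. The labels give no replicate numbers.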
